A study of Arabidopsis thaliana with 83 samples.

Results

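Bur-0, a natural accession of Arabidopsis thaliana, was compared with the reference accession Col-0 in whole seedlings before they were given the auxin IAA. The comparison rests on 6 of the 83 ATH1 arrays of a study of natural variation in the auxin response, namely the 3 arrays labelled Bur-0 and the 3 labelled Col-0 at 0 h. In the Bur-0 titles accession and time are run together as Bur-0h, and these arrays were taken as the 0 h time point. Both groups are wild accessions with no transgene or mutation named in the labels, and the labels describe the same growth for both. Seed was kept in the cold and dark for 5 days, and seedlings were then grown for 7 days in shaken flasks of liquid medium at 22 °C in constant light, which passed a yellow filter for the last 24 h. The labels give the tissue as the whole plant, and whether the 3 arrays of a group came from separate flasks is not stated, so the p-values rest on array-to-array variation that may be purely technical. The serial numbers in the titles are 37 to 39 for Bur-0 and 61 to 63 for Col-0, so accession and any order of processing cannot be told apart. The other arrays, 5 further accessions at 0 h and all 7 accessions at 30 min, 1 h and 3 h, were used to estimate the spread and to ask where the 0 h differences recurred.

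Accessions are inbred lines from separate wild populations, and they differ from one another by base changes, small insertions and deletions and by whole genes that are present in some and absent in others. Such differences can alter how much transcript a gene makes, and resistance genes, secreted defence proteins and enzymes of specialised metabolism such as the glucosinolate pathway are known as variable classes. At this age a seedling has mostly used up its seed reserves, and its chloroplasts carry out photosynthesis with proteins encoded in part by the plastid's own genome. An ATH1 probe set is a group of short oligonucleotides of Col-0 sequence near the 3′ end of a transcript, and a mismatch lowers the signal of another accession. A lower Bur-0 signal may therefore come from less transcript or from a changed or missing target, and these cannot be told apart in the values below.

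The deposited table held 1 scaled signal per probe set and array. After the dimmest 30% were set aside, 15922 probe sets were compared, of which 8674 were listed with a single gene and stood for 8582 genes. Across probe sets, r was 0.982 to 0.985 between Bur-0 arrays, 0.988 to 0.989 between Col-0 arrays and 0.935 to 0.945 between an array of each (probe sets are not independent replicates). The 9 nuclear photosynthesis genes taken as shoot markers had group means of 35.5 to 4875, and 2 root hair expansins, EXPA7 and EXPA18, of 15.3 to 33.2. The 2 flower and pollen markers with a probe set of their own did not pass the filter on dim probe sets. Ratios of control signals differed between the groups. They can reflect RNA quality or the sequence under the probes, and these were not told apart. For the GAPDH control, the signal at the 3′ end divided by that at the 5′ end was 1.70 ± 0.13 in Bur-0 and 2.92 ± 0.19 in Col-0 (SD, n = 3), and that of ubiquitin was 2.26 ± 0.22 and 4.06 ± 0.70, with no overlap in either case. The actin ratio was 16.0 ± 1.9 in Bur-0 and 105 ± 43 in Col-0. At 0 h the mean actin 3′ signal was 339 in Bay-0 and 296 in C24, against 1708 to 2078 in Bl-1, Fei-0 and Sha. Mean 5′ signals in Bur-0 and Col-0 were 1069 and 699.5 for GAPDH, 1014 and 897 for ubiquitin and 109 and 21.5 for actin. Mean 3′ signals, in the same order, were 1819 and 2035, 2295 and 3620, and 1723 and 2072. The Col-0 arrays at 0 h thus had weaker 5′ signals relative to the 3′ end, and their GAPDH ratio also lay above that of the later Col-0 arrays, whose group means were 1.93 to 2.01. This difference moves with the accession at 0 h, and the calls at 0 h and the change after 0 h are also given with a ratio in the model. With the GAPDH ratio, 486, 497 and 483 probe sets were called at 30 min, 1 h and 3 h, in place of 492, 505 and 484. For the mean of these times 435 were called in place of 434. Against the 5 other accessions the counts were 357 in place of 357 for Bur-0 and 269 in place of 293 for Col-0. For the remaining counts below, the part of the difference in the ratios was not tested.

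At 0 h 609 of the 15922 probe sets were called, meaning at least a 2-fold difference on the log2(signal + 16) scale and a limma p under 0.05 after Benjamini-Hochberg adjustment. In Bur-0 250 were higher (1.57%) and 359 lower (2.25%), so 58.9% of the calls were lower signals in Bur-0. With no minimum size, 16.3% of all probe sets were higher and 17.6% lower at an adjusted p under 0.05, and the median difference of all probe sets was −0.01. On 250 of the 250 higher and 358 of the 359 lower calls the 3 Bur-0 and 3 Col-0 arrays did not overlap. Over all probe sets tested, the 3 Bur-0 arrays lay above the 3 Col-0 arrays for 22.4% and below them for 23.9%. The calls were mostly modest in size, with a median of 1.22 for the higher and −1.30 for the lower ones. Large differences were more often in the lower direction, where 56 probe sets passed 4-fold and 12 passed 8-fold, against 21 and 6 in the higher direction. For 69 of the lower calls (19.2%) every Bur-0 signal was under 16, and for 31 of the higher calls (12.4%) every Col-0 signal was. With the GAPDH ratio of each array as a covariate, 194 of the 250 higher and 316 of the 359 lower calls held, and with the ubiquitin ratio 164 and 282, at a larger standard error (median for the higher calls 0.19 and 0.22 in place of 0.17). This alternative was chosen after the ratios had been seen.

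**Figure D1:**
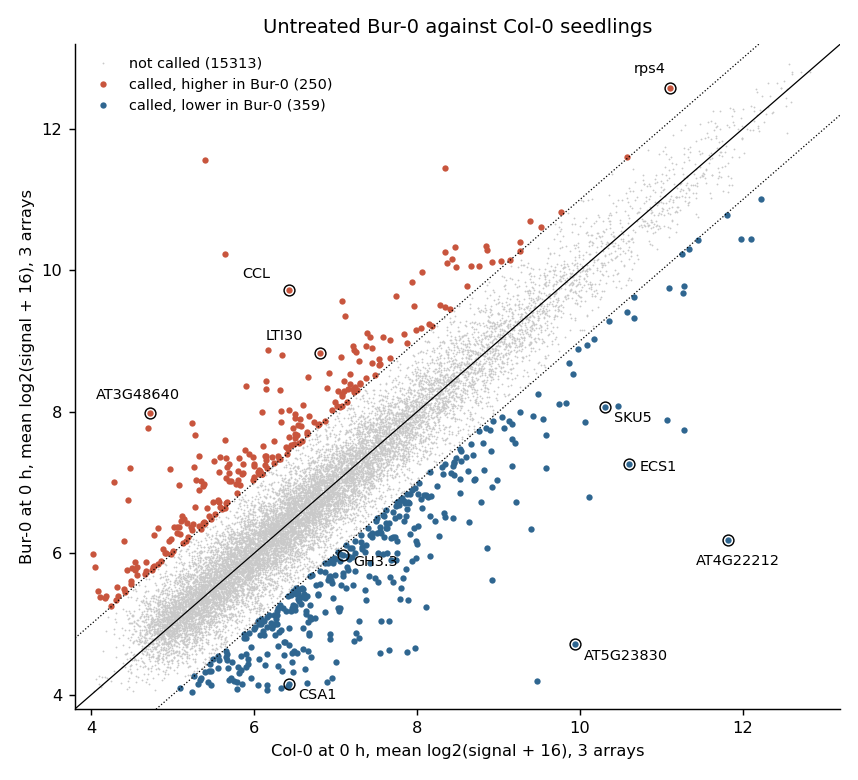
Mean log2(signal + 16) of the 3 Bur-0 arrays (vertical axis) against that of the 3 Col-0 arrays (horizontal axis) at 0 h for 15922 probe sets. The solid line marks equal signals and the dotted lines a 2-fold difference. Among the 359 lower calls (blue) 56 lie past 4-fold, and among the 250 higher calls (red) 21.

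Among called probe sets with a single gene, 137 were higher and 192 lower. Most of these genes carry only a locus identifier in the annotation used here, and no function is given for those. The other 113 higher and 167 lower calls were probe sets listed with several genes or none, and their largest differences were 6.16 and −5.28. Of the 329 calls with a single gene, 49 carried a gene name, 23 higher and 26 lower, and all 49 are described below. That selection, and the grouping by role, was made after the values were seen. The genes of the fixed lists and those with the largest differences were named by rule.

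The 2 genes furthest below Col-0 in Bur-0, AT4G22212 and AT5G23830, were bright in Col-0. AT4G22212 gave 38.2, 43.5 and 104 on the Bur-0 arrays and 3216, 4087 and 3545 on the Col-0 arrays, a log2 difference of −5.63 ± 0.21 (SE, adjusted p = 8.66e-34). AT5G23830 gave 17.7, 4.56 and 10.1 against 858, 1133 and 926, a difference of −5.22 ± 0.17 (adjusted p = 2.48e-38). In both genes the groups lay more than an order of magnitude apart on every array. ECS1, a cell wall protein that was linked to resistance to a bacterial pathogen, gave 147, 113 and 156 in Bur-0 and 1784, 1388 and 1475 in Col-0, a difference of −3.34 ± 0.31 (adjusted p = 5.21e-14). Of similar size were AT2G25510, the third largest, at −3.54 ± 0.43, AT5G44580 at −3.32 ± 0.28, ZW9 at −3.30 ± 0.18 and AT5G63680 at −3.28 ± 0.14. The other 8 of the 15 largest, from AT1G52100 at −2.95 to AT3G19515 at −2.48, included AT4G19530, AT2G21045, AT3G60980, AT2G21860, AT4G02540 and AT1G23130. AT3G60980 stood at 1.74 to 2.38 on the Bur-0 arrays and 96.6 to 111 on the Col-0 arrays.

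The higher signals in Bur-0 were led by CCL, a gene known for an unstable transcript whose decay follows the circadian clock. CCL gave 838, 1127 and 595 on the Bur-0 arrays and 88.7, 68.4 and 56.6 on the Col-0 arrays, a difference of 3.29 ± 0.20 (adjusted p = 5.68e-23). AT3G48640 gave 246, 231 and 231 against 16.0, 8.20 and 7.49, a difference of 3.26 ± 0.17. The lowest Bur-0 array thus stood well above the highest Col-0 array in both. The next were AT5G15360 at 2.73 ± 0.17, AT4G29200 at 2.72 ± 0.16, AT3G62550 at 2.62 ± 0.23 and AT1G50060 at 2.40 ± 0.31. AT5G24240, AT1G02300, AT5G54370, AT3G19430 and AT4G19430 followed at 2.05 to 2.3, and AT5G15180 stood at 1.97 ± 0.21. The other members of the 15 largest, LTI30, ndhG and CYP71B22, are taken up with their groups.

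**Figure D2:**
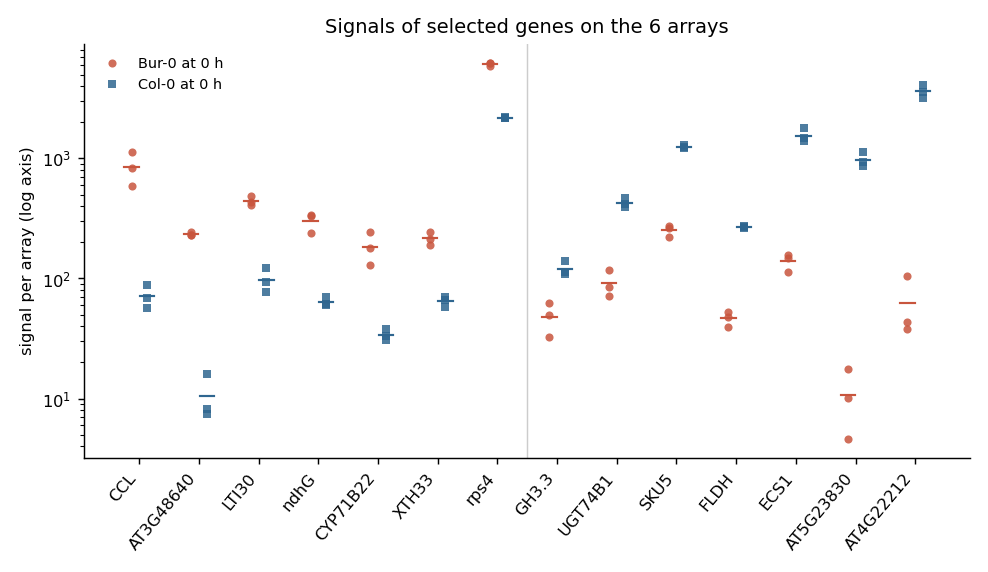
Signal on each of the 3 Bur-0 (red circles) and 3 Col-0 (blue squares) arrays at 0 h for 14 genes, on a log axis, with a bar at the mean of each group. In the 7 genes on the left every Bur-0 array lies above every Col-0 array, and in the 7 on the right every Bur-0 array lies below. The signals of AT5G23830 and AT4G22212 in Bur-0 spread more, relative to their mean, than those in Col-0.

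Genes of the plastid genome leaned towards higher signals in Bur-0. Of 67 measured, 55 had a positive difference, 5 were called higher (7.46%) and none lower, with a median of 0.34, beside 1.53% and 2.24% called and a median of −0.02 over all 8582 genes. At an adjusted p under 0.05 and any size, 20 were higher and 2 lower (29.9% and 2.99%, beside 15.2% and 17.8% of all genes). The difference was uneven among complexes and largest for the plastid NAD(P)H dehydrogenase-like complex, which feeds electrons into cyclic flow around photosystem I. Of its 9 measured genes 3 were called and the median was 0.65. The gene ndhG gave 240, 340 and 329 in Bur-0 and 70.8, 60.6 and 61.0 in Col-0 (1.98 ± 0.27, adjusted p = 1.88e-08). The gene ndhE gave 583, 861 and 933 against 202, 228 and 166 (1.90 ± 0.32), and ndhH gave 177, 108 and 120 against 38.6, 29.6 and 36.5 (1.55 ± 0.24). These are 3 subunits of one complex. The subunit genes ndhA (0.88 ± 0.18), ndhI (0.62 ± 0.14) and ndhK (0.65 ± 0.25) were also higher at an adjusted p under 0.05, and ndhD was lower, at −0.51 ± 0.19.

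Outside that complex, rps4, a protein of the small plastid ribosomal subunit, gave 6231, 6258 and 5840 in Bur-0 and 2184, 2210 and 2159 in Col-0 (1.48 ± 0.16, adjusted p = 1.28e-11). The gene psaA, a core protein of photosystem I, stood at 1.2 ± 0.37 (adjusted p = 0.00895), but at −0.18 with the ubiquitin 3′/5′ ratio as a covariate. Its call was also lost with the GAPDH ratio (1.04, adjusted p = 0.0567) and without Col-0 replicate 2 (1.04, adjusted p = 0.0553). The medians were 0.45 for 6 ATP synthase genes, 0.39 for 14 ribosomal proteins, 0.23 for 15 photosystem II genes, 0.23 for 6 cytochrome b6f genes, 0.21 for 5 photosystem I genes and 0.11 for 4 RNA polymerase genes. Of the ribosomal proteins, rpl20 was lower at an adjusted p under 0.05, at −0.77 ± 0.27. The signals of all 67 genes summed to between 113183 and 122486 on the Bur-0 arrays and between 94170 and 97941 on the Col-0 arrays. Plastid transcripts mostly lack long poly(A) tails, and the labelling kit named in the labels starts from the 3′ tail (background, not measured here). The part of the 3′/5′ difference in them was not tested beyond the covariate fits, in which ndhG, ndhE and rps4 remained called and ndhH remained called with the GAPDH but not the ubiquitin ratio. In whole seedlings, fewer cells of a type and less RNA per cell cannot be told apart.

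**Figure D3:**
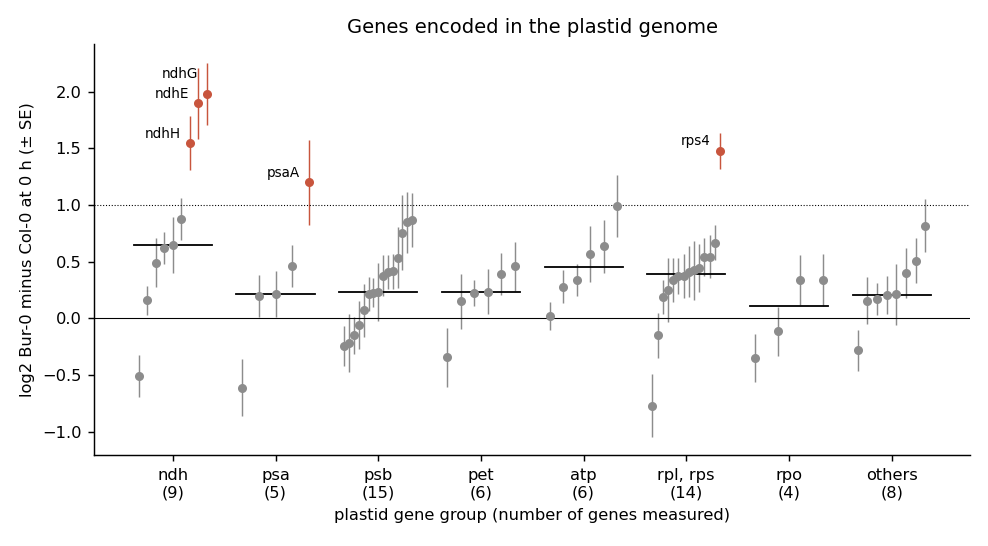
Log2 difference between Bur-0 and Col-0 at 0 h (points, with the SE of the fit) for 67 genes of the plastid genome, grouped by complex with the number of genes measured. Black bars mark the median of each group and the dotted line a 2-fold difference. The 5 called genes (red) are ndhG, ndhE, ndhH, rps4 and psaA, and the highest median is that of the ndh genes.

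Nuclear genes that serve the chloroplast moved in both directions. Of 9 measured nuclear photosynthesis genes, 5 were higher in Bur-0 at an adjusted p under 0.05 (LHCB4.3, PSBY, PSAN, PSAE-1 and RCA) and none lower. Over all genes 15.2% were higher and 17.8% lower at that threshold. None of the 9 reached 2-fold, and the median of the 9 was 0.36. For the mean of the later times the median of the 9 was −0.03, whereas that of the 67 plastid genes was 0.37. The signals of the 9 genes summed to 23209 to 24943 on the Bur-0 arrays and 18502 to 20121 on the Col-0 arrays. PIFI, a chloroplast protein needed for electron flow through the NAD(P)H dehydrogenase-like complex, gave 390, 407 and 394 in Bur-0 against 186, 138 and 155 (1.24 ± 0.18). PAM68, an assembly factor of photosystem II, stood at 1.27 ± 0.19. PWD, a kinase that phosphorylates starch so that it can be degraded, was higher by 1.14 ± 0.21 in the probe set called. In contrast CFM3A, a splicing factor of chloroplast introns, was lower by 1.19 ± 0.16 and HEMA2, a glutamyl-tRNA reductase at the start of tetrapyrrole synthesis, gave 18.8, 15.2 and 13.9 against 58.8, 62.7 and 63.1 (−1.28 ± 0.18).

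Both measured dehydrins of the list of abscisic acid, cold and drought genes were higher in Bur-0 at an adjusted p under 0.05, and 1 was called. They were the only 2 genes measured of the 33 names in that list. Of all genes 15.2% were higher at that adjusted p and 1.53% were called higher. The median of the 2 was 1.46 at 0 h and 0.28 for the mean of the later times. LTI30, which protects membranes in dehydrated cells and is induced by cold and abscisic acid, gave 433, 482 and 407 in Bur-0 and 93.5, 122 and 77.0 in Col-0 (2.02 ± 0.18, adjusted p = 5.35e-15). COR47 gave 1037, 1215 and 914 against 571, 547 and 540, a difference of 0.90 ± 0.11 that did not reach 2-fold. DI21, named for induction by drought, went the other way, at 129, 114 and 105 against 411, 552 and 519 (−1.94 ± 0.19). FLDH, a farnesol dehydrogenase known as a negative regulator of abscisic acid signalling, gave 39.7, 52.7 and 47.5 against 270, 264 and 273 (−2.19 ± 0.12, adjusted p = 2.08e-25). Its Bur-0 signals were also below those of all 5 other accessions, as set out further on.

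Of 13 measured members of the auxin response list 1 was called, in the lower direction (7.69%), where 2.24% of all genes were called lower, and the median was −0.07. At an adjusted p under 0.05 and any size 2 were higher and 1 lower, or 15.4% and 7.69%, beside 15.2% and 17.8% of all genes. GH3.3, which conjugates auxin to amino acids and is an early auxin response gene, gave 32.3, 61.9 and 49.5 in Bur-0 and 140, 113 and 109 in Col-0 (−1.12 ± 0.14, adjusted p = 5.17e-10). The call was lost without Bur-0 replicate 1, at −0.93, and with the GAPDH ratio as a covariate, at −0.995. The Aux/IAA repressor genes IAA29 (0.78 ± 0.19, adjusted p = 0.000611) and IAA18 (0.39 ± 0.12, adjusted p = 0.0106) were higher by less than 2-fold. HAT2, a homeodomain-leucine zipper gene of auxin and shade responses, stood at 0.30 ± 0.13 (adjusted p = 0.0708), and LBD29, a regulator of lateral root formation, at −0.03 ± 0.18 with signals under 16 in both accessions.

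Among enzymes of specialised metabolism, calls ran in both directions. UGT74B1, which glucosylates thiohydroximates in glucosinolate synthesis, gave 117, 71.9 and 84.8 in Bur-0 and 394, 414 and 467 in Col-0 (−2.06 ± 0.16, adjusted p = 7.97e-18). Only 4 genes were found for the 50 names in the list of that pathway. The other 3 of them were not called, with BCAT4, the first enzyme of methionine chain elongation, at −0.06 ± 0.12, AOP1 at 0.42 ± 0.15 and AOP3 at −0.05 ± 0.21. Among 31 UDP-glycosyltransferases 2 were called, UGT74B1 and UGT72E1, a coniferaldehyde glucosyltransferase that was higher at 1.02 ± 0.14. The UGT72E1 call was lost without any single one of 4 of the 6 arrays, at 0.90 to 0.99, and with the GAPDH (0.83) and ubiquitin (0.63) covariates. CYP71B22 was the only call among 13 cytochrome P450 genes, with 179, 242 and 131 against 33.4, 37.7 and 30.9 (1.96 ± 0.17). None of 12 glutathione S-transferases or 5 flavonoid genes was called; 5 and 0 of them were higher and 2 and 2 lower at an adjusted p under 0.05. Over all genes 1.53% were called higher and 2.24% lower, and 15.2% and 17.8% at an adjusted p alone. BGLU15, a beta-glucosidase acting on flavonol glycosides, was very even among replicates, at 301, 309 and 309 against 97.2, 110 and 102 (1.44 ± 0.15). The serine carboxypeptidase-like gene scpl42 was lower, at 10.6 to 15.1 against 105 to 108 (−2.07 ± 0.15).

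Named genes with known roles in defence, grouped after their values were seen, were called in both directions. CSA1, a TIR-type resistance protein, gave 0.650, 2.60 and 2.04 in Bur-0 and 80.3, 63.4 and 67.9 in Col-0 (−2.28 ± 0.15, adjusted p = 6.37e-21). The defensins LCR67 (−1.26 ± 0.38, adjusted p = 0.0063) and PDF2.5 (−1.27 ± 0.22) were lower, LCR67 as the only call among 3 measured genes of the list of protease inhibitors and defensins. Of these LCR67 ranged from 0.372 to 15.0 among the Bur-0 arrays, and its call was lost with either 3′/5′ covariate and without Bur-0 replicate 3. The PDF2.5 call was lost with the ubiquitin covariate, at −0.87. NAI2, which builds the beta-glucosidase-filled bodies of the endoplasmic reticulum, gave 244, 247 and 288 against 892, 762 and 871 (−1.64 ± 0.14). ORA47, an ERF transcription factor that activates jasmonate synthesis, gave 39.2, 38.6 and 28.5 against 153, 151 and 158 (−1.73 ± 0.19), and CML23, a calmodulin-like protein, was lower by 1.37 ± 0.24. SD1-29, a lectin receptor kinase that senses bacterial hydroxylated fatty acids, went the other way at 1.03 ± 0.14, as did CW9 at 1.1 ± 0.15. The SD1-29 call was lost with the GAPDH (0.97) and ubiquitin (0.88) covariates, and both were lost without Col-0 replicate 3, at 0.94 and 0.99. None of the 5 measured genes of the salicylic acid and pathogen list was called, where 1.53% of all genes were called higher and 2.24% lower. Of 4 touch and rapid stress genes, STZ (−0.84 ± 0.15), WRKY22 (−0.60 ± 0.14) and WRKY53 (−0.58 ± 0.16) were lower at an adjusted p under 0.05, and none reached 2-fold. At that adjusted p 17.8% of all genes were lower.

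Cell wall genes again split by member. SKU5, a GPI-anchored protein related to multicopper oxidases that steers directional root growth, gave 222, 261 and 273 in Bur-0 and 1238, 1231 and 1298 in Col-0 (−2.25 ± 0.12, adjusted p = 4.64e-25). CSLC04, a glucan synthase of the xyloglucan backbone, was lower at 112, 106 and 135 against 424, 369 and 419 (−1.66 ± 0.13). The pectin methylesterase ATPMEPCRB (−1.35 ± 0.22) and CKS, which activates the sugar KDO for pectin (−1.04 ± 0.10), were lower too, and the CKS call was lost with either covariate and without Col-0 replicate 2, at −0.94 to −0.98. XTH33, a xyloglucan endotransglucosylase/hydrolase, was higher, at 215, 244 and 191 against 70.4, 65.8 and 57.8 (1.53 ± 0.15), the only call among 7 measured members of its family. Of 15 expansins none was called, where 1.53% of all genes were called higher and 2.24% lower. At an adjusted p under 0.05, 5 of the 15 were higher and 2 lower (33.3% and 13.3%, beside 15.2% and 17.8% of all genes), and the median was −0.04.

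Genes of seed reserve use, organelles and protein turnover made up most of the remaining named calls. ICL, isocitrate lyase of the glyoxylate cycle that turns stored lipid into sugar, was lower at −2.04 ± 0.62 (adjusted p = 0.00705), but its arrays spread widely, at 143, 0.771 and 62.6 in Bur-0 and 233, 121 and 412 in Col-0. The groups overlap, and the call was lost without Bur-0 replicate 2 (−1.13), without Col-0 replicate 3 (−1.63) and with either covariate. The seed marker PAP85, a vicilin-like storage protein, stood at −0.99 ± 0.35, with 3.15 to 12.4 in Bur-0 and 19.3 to 45.1 in Col-0. PEX4, a peroxisomal ubiquitin-conjugating enzyme, was lower by 1.27 ± 0.13 and UBC18, another such enzyme, by 1.04 ± 0.17. ETFBETA, a mitochondrial electron transfer flavoprotein subunit, was lower by 1.86 ± 0.18, whereas FDH, the mitochondrial formate dehydrogenase, was higher at 1374, 1696 and 1036 against 710, 518 and 584 (1.14 ± 0.15). Of the vacuolar processing enzymes, which mature vacuolar proteins, GAMMA-VPE was higher (1.3 ± 0.12) and BETA-VPE lower (−1.02 ± 0.21). The BETA-VPE call was lost without Bur-0 replicate 2 (−0.89), Col-0 replicate 2 (−0.89) or Col-0 replicate 3 (−0.97), and with the ubiquitin covariate (−0.73, adjusted p = 0.0776). The ubiquitin covariate also ended the calls of FDH (0.80), UBC18 (−0.90) and DAL1 (0.86), as did leaving out Bur-0 replicate 2 for FDH (0.98) and Bur-0 replicate 1 for UBC18 (−0.80). SQN, a cyclophilin needed for microRNA function and the timing of phase change, gave 76.6, 65.5 and 56.7 against 12.4, 12.5 and 11.5 (1.54 ± 0.14). The ceramidase gene ATCES1 (−1.39 ± 0.15) and MOB1-like (−1.66 ± 0.15) were lower, and DAL1 (1.35 ± 0.18) and MPC (1.24 ± 0.19) were higher.

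Of 89 genes with several tested probe sets 9 had a call, and in none of the 9 did every probe set reach 2-fold. With 1 probe set per gene, 1.53% of all genes were called higher and 2.24% lower. A gene with several probe sets has more than 1 opportunity for a call, so these shares are not directly comparable. The uncalled probe set was higher at an adjusted p under 0.05 in SIZ1, PWD and AT1G10090. SIZ1, a SUMO ligase, gave 1.76 ± 0.28 on the probe set called (47.3, 50.1 and 72.4 in Bur-0 against 2.57, 11.0 and 2.97 in Col-0) and 0.39 ± 0.09 on the other. SDRB, a peroxisomal short-chain dehydrogenase, gave 1.21 ± 0.13 and −0.09 ± 0.11, and PWD 1.14 ± 0.21 and 0.45 ± 0.12. AT1G31710 was lower on one probe set by 1.29 ± 0.12 and stood at 0.14 ± 0.18 on the other. In the remaining 5 genes, AT1G10090, AT1G23440, AT3G50590, AT4G01290 and AT5G13030, one probe set was called higher and the other was not, and each of these 5 calls was lost with either 3′/5′ covariate. The SDRB call was lost with both too, at 0.96 (GAPDH) and 0.75 (ubiquitin), and the PWD call without Bur-0 replicate 2 (0.95) or Col-0 replicate 1 (0.99). A call on a single probe set is therefore a statement about that stretch of the transcript, and the position of each probe set along its gene was not used here.

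On the 9 later arrays of each accession the lower calls recurred more often than the higher ones. At 30 min, 1 h and 3 h 0.829%, 0.936% and 0.678% of all probe sets were called higher and 2.26%, 2.24% and 2.36% lower. Of the 359 lower calls at 0 h, 228, 226 and 220 were called lower again at the 3 times (63.5%, 63.0% and 61.3%), and their median was −1.18, −1.16 and −1.17. Of the 250 higher calls, 91, 87 and 63 were called higher again (36.4%, 34.8% and 25.2%), and their median was 0.70, 0.78 and 0.56. None was called in the opposite direction at any of the 3 times. For the mean of the later times, 0.659% of all probe sets were called higher and 2.07% lower, and these held 77 of the 250 higher (30.8%) and 227 of the 359 lower calls (63.2%). The calls were chosen at 0 h for their size, so smaller values at other times are built into such a repeat in both directions.

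The change itself was tested with an F test of the 3 later differences against the 0 h difference. It was called, with at least a 2-fold change at one time, for 325 probe sets (2.04%), among them 78 of the 250 higher calls (31.2%) and 33 of the 359 lower calls (9.19%). In 77 of those 78 and in 28 of those 33 the later difference lay nearer to 0 or beyond it. The 0 h difference that chose these calls also enters the change. Choosing by it raises these shares and turns the changes towards 0 by itself, so they are given as a description. CCL fell from 3.29 at 0 h to 1.14, 2.04 and 1.21 at the later times (adjusted p = 1.05e-07 for the change), and LTI30 from 2.02 to 0.38, 0.77 and 0.11 (adjusted p = 6.25e-07). AT3G62550, AT1G50060, AT5G54370 and AT5G15180 likewise had differences of 0.50 to 1.46 later. AT4G22212 and AT4G19530 changed too but were called lower at every time, at −4.68, −4.32 and −5.16 and at −2.43, −1.45 and −1.36. GH3.3 went from −1.12 to −0.18, 0.49 and 0.11 (adjusted p = 1.39e-07), and AT1G29270 from −1.5 to −0.34, 0.44 and 0.43 (adjusted p = 6.31e-10). Among genes not called at 0 h, AT5G61820 went from 0.89 to −0.03, −0.62 and −0.36, and AT3G18250 from −0.52 to 0.30, 1.08 and 0.72. Other genes were called in the same direction at every later time, with SKU5 at −2.24, −2.02 and −1.72, UGT74B1 at −1.91, −2.32 and −1.74, rps4 at 1.63, 2.06 and 1.74 and AT3G48640 at 3.94, 4.15 and 3.97. Over the same times the GAPDH 3′/5′ ratio was 1.72 ± 0.18, 2.67 ± 0.30 and 1.93 ± 0.27 in Bur-0 and 2.00 ± 0.26, 1.93 ± 0.12 and 2.01 ± 0.33 in Col-0 (SD, n = 3), so the GAPDH gap was widest at 0 h and turned at 1 h. The ubiquitin ratio stayed higher in Col-0, at 3.47, 3.28 and 2.94 against 2.16, 2.37 and 2.31, and so did actin, at 66.5, 77.8 and 62.9 against 21.0, 29.6 and 25.5. With the GAPDH ratio as a covariate 264 probe sets were called for the change.

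**Figure D4:**
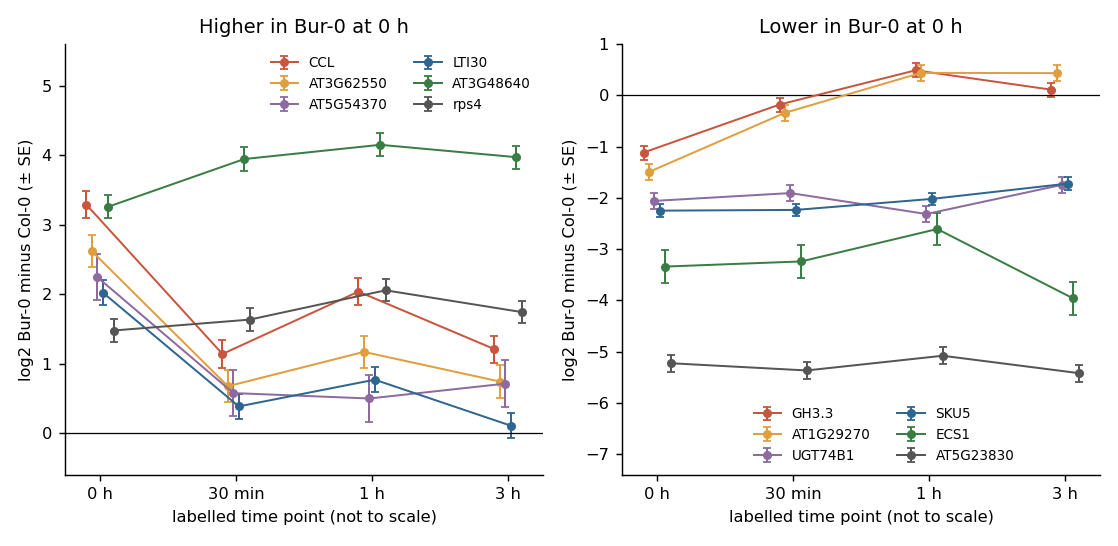
Log2 difference between Bur-0 and Col-0 (with the SE of the fit) at 0 h, 30 min, 1 h and 3 h for 6 genes higher (left) and 6 genes lower (right) in Bur-0 at 0 h. The lines of CCL, AT3G62550, AT5G54370, LTI30, GH3.3 and AT1G29270 move towards 0 after 0 h. Those of AT3G48640, rps4, UGT74B1, SKU5, ECS1 and AT5G23830 stay away from it at every time.

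The 5 other accessions at 0 h, Bay-0 (which the labels also describe as the parent of a cross with Sha), Bl-1, C24, Fei-0 and Sha, show which side of a difference stood apart. Bur-0 against their mean gave 0.999% of probe sets higher and 1.24% lower, and Col-0 against the same mean gave 1.26% higher and 0.578% lower. These comparisons share arrays with the one above, so only the levels are set side by side. Some genes were low in Bur-0 alone of the 7 accessions. FLDH gave 46.6 ± 6.55 (SD, n = 3) in Bur-0 and means of 233 to 420 in the 6 others, AT5G63680 gave 8.48 ± 4.71 against 202 to 321, and AT1G23130 91.7 ± 24.4 against 580 to 1160. AT4G22212 was lowest in Bur-0, next in Fei-0 at 530 ± 174, and 2465 to 4493 in the 5 others.

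In other genes it was Col-0 that stood apart. ECS1 gave 1549 ± 208 in Col-0 and means of 8.6 to 319 in the 6 others, with Bur-0 in the middle at 139 ± 22. ORA47 gave 154 ± 3.65 in Col-0 and 8.79 to 35.5 elsewhere, where Bur-0 was the second highest. AT5G44580 gave 1127 ± 363 against 43.2 to 94.9, AT4G02540 173 ± 16 against 10.9 to 20.9, and AT2G21045 261 ± 18 against 21.8 to 58.7. In these 5 genes Col-0 was the highest of the 7 accessions. In some genes the low signal of Bur-0 was shared with 1 or more other accessions. SKU5 was as low in Bay-0 (209 ± 7.0) as in Bur-0 (252 ± 27), against 979 to 1256 in the 5 others. UGT74B1 was low in Bur-0 (91.1 ± 23.0), Bay-0 (97.4 ± 26.7) and Fei-0 (102 ± 24) and 372 to 539 in the 4 others. CSA1 had means under 16 in Bur-0, Bl-1 and Sha and of 70.5 to 256 in the 4 others.

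Among the higher calls, some genes had Bur-0 apart from the other accessions, and others had Col-0 apart or a level shared by several. CCL was highest in Bur-0, at 853 ± 266, with 71.2 ± 16.2 in Col-0 and 99.8 to 279 in the 5 others. LTI30 was 441 ± 38 in Bur-0, 255 ± 22 in Fei-0 and 75.6 to 155 in the 5 others. CYP71B22 was 184 ± 56 in Bur-0 and 29.0 to 56.0 in the 6 others, and MPC 40.0 ± 2.7 against 6.69 to 13.0. SQN was instead low in Col-0 (12.1 ± 0.55) and Bay-0 (11.8 ± 5.1) and 66.3 to 111 in the 5 others, Bur-0 included. AT5G15360 was 6.54 ± 4.55 in Col-0 and 72.5 to 135 elsewhere, and AT1G02300 was 54.9 ± 5.7 in Col-0, 331 ± 51 in Bur-0 and 105 to 207 in the others. AT4G29200 had means under 16 in Col-0, Bay-0 and Fei-0, 114 ± 27 in Bur-0 and up to 1070 ± 39 in Bl-1.

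**Figure D5:**
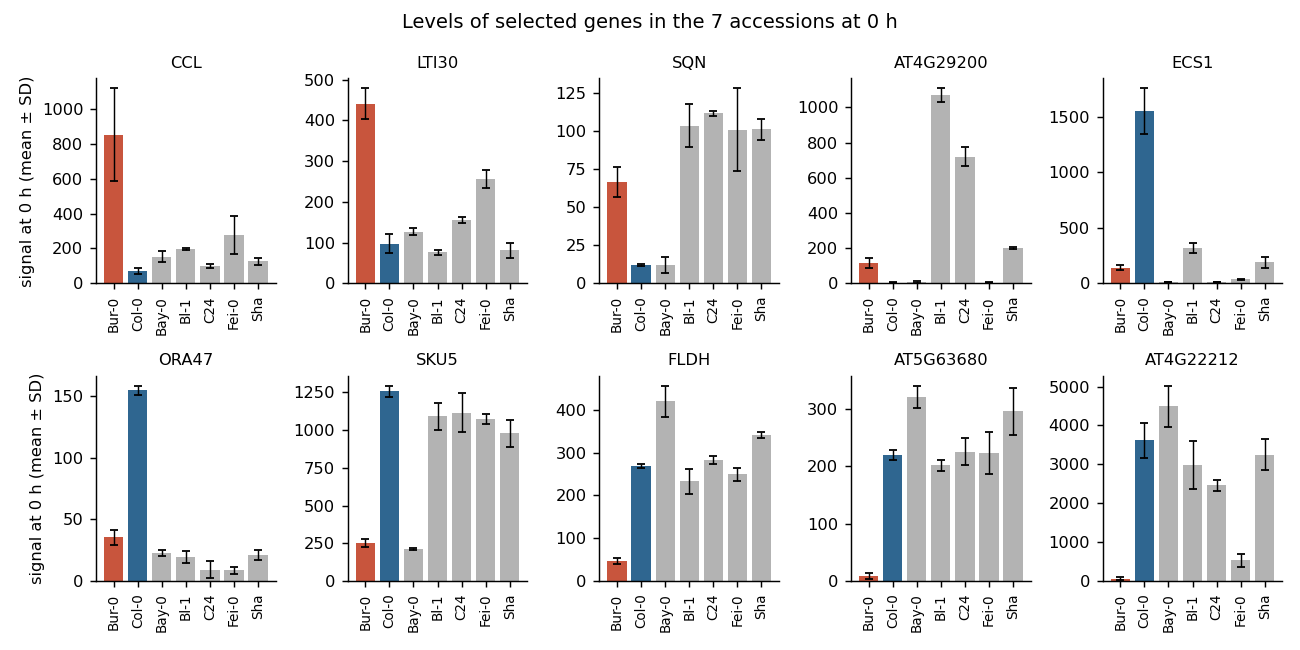
Mean signal at 0 h (bars, with the SD of 3 arrays) of 10 genes in Bur-0 (red), Col-0 (blue) and the 5 other accessions (grey), each on its own linear axis from 0. CCL, LTI30, FLDH, AT5G63680 and AT4G22212 show Bur-0 at one end of the 7 accessions, ECS1 and ORA47 show Col-0 alone high, SKU5 shows Bur-0 and Bay-0 low, SQN shows Col-0 and Bay-0 low, and AT4G29200 shows 3 accessions near 0.

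The order of the 7 accessions was also read from the means of the later times, whose levels did not enter the 0 h difference, although those arrays helped to set the spread and the filter. Over all probe sets tested, Bur-0 was the lowest for 13.6% and the highest for 12.1%. Col-0 was the lowest for 21.4% of them and the highest for 9.73%. Bur-0 was the lowest for 144 of the 359 lower calls (40.1%) and Col-0 the highest for 163 (45.4%). For the 250 higher calls Bur-0 was the highest in 69 (27.6%) and Col-0 the lowest in 120 (48.0%). Choosing calls by the difference between these accessions raises such shares by itself, so they are given as a description. By chromosome, calls were spread over the nuclear genome. The share of measured genes called higher was 1.17% to 1.83% and the share called lower 1.46% to 2.63% over chromosomes 1 to 5, lowest for lower calls on chromosome 2 (18 of 1232) and highest on chromosome 4 (33 of 1253). Of 3020 pairs of genes next to each other in the annotation with both measured, 11 had both called, 7 in the same and 4 in opposite directions. The next gene was called in 10.1% of the pairs with the first one called, against 3.34% of all pairs. AT1G14210 was lower by 1.83 beside AT1G14220 at 1.45, and AT1G52050 lower by 1.64 beside AT1G52060 at 1.45. AT4G19500 (−2.16) and AT4G19510 (−1.16) were both lower.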

How the data were processed

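The deposited values were signal intensity values on a linear scale, 1 per probe set and array; MAS5 and GCOS are named in the submitters' processing notes without a version. Of 22810 probe sets, 64 Affymetrix controls were used only for 3′/5′ ratios. Signals were taken as log2(signal + 16), which understates differences of dim probe sets, and the 30% of the other 22746 with the lowest mean over all arrays (6824) were left out. Limma 3.58.1 (R 4.3.3) was fitted with 1 mean per group over 83 arrays and 28 groups and a trended prior (55 residual and 13.2 prior degrees of freedom), and p-values were Benjamini-Hochberg adjusted over all 15922 probe sets. All p-values printed are adjusted p from limma, two-sided except for the F test. The fit was tested on simulated data. Tables were made with Python and pandas and figures with matplotlib. For arrays, their number limits the precision.

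A single gene was listed for 13513 probe sets, several for 503 and none for 8730. Names were updated through RefSeq (assembly TAIR10.1), where 13436 matched on the gene identifier, 48 on the locus tag and 29 kept the listed name. In lists a gene was represented by its brightest probe set. Few of the names in the lists of names were found in the annotation. The glucosinolate list matched 4 genes for 50 names, salicylic acid 5 for 40 and abscisic acid, cold and drought 4 for 33. Photosynthesis matched 9 for 45 and root markers 2 for 26. List counts therefore describe the genes found and not whole pathways.

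Named genes were the 15 largest calls each way with no overlap between groups, up to 4 called members of each list, the 5 largest each way also called for Bur-0 or for Col-0 against the 5 other accessions, the 6 smallest p for the change after 0 h, and 7 fixed genes. Of these, IIL1 and FLC were not measured, and QQS stood at 0.05 ± 0.15. The comparison and the lists were chosen with earlier results of these data known. The jasmonate, resistance gene, receptor kinase and cytosolic ribosomal lists matched no gene in the annotation. The heat shock and F-box lists matched 1 gene each, which was not among those measured. These empty lists do not show that such genes were absent or dim. A resistance protein and a lectin receptor kinase described above were measured outside the lists. Of the other lists, flowering time (1 measured), clock (2), hypoxia (2), mineral nutrition (2), sulfur metabolism (3), class III peroxidases (5), lectins (4) and genes reported as polymorphic (4) had no call. Over all genes 1.53% were called higher and 2.24% lower. Alternatives are given in the closing section.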

Additional observations from a re-analysis of the deposited data

Results flagged for a closer look

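The difference between Bur-0 and Col-0 at 0 h differed from that at 30 min, 1 h and 3 h, by the limma F test of the change and at least a 2-fold change at one time, for 325 of 15922 probe sets, of which 214 were not called at 0 h. The genes named in the report that met this test are given here with the adjusted p of the change. The smallest p belonged to AT1G29270 (6.31e-10), CCL (1.05e-07) and GH3.3 (1.39e-07), followed by AT5G61820, LTI30 and AT3G18250 at 6.25e-07 each. AT4G19530 (3.47e-05), AT3G62550 (3.72e-05), AT4G22212 (0.00968), AT1G50060 (0.0143), AT5G54370 (0.0186) and AT5G15180 (0.045) are among the largest differences at 0 h. Among genes with several probe sets or with a called neighbour were AT4G02850 (0.00361), AT3G53980 (0.00645), AT1G10090 (0.00682), AT1G52060 (0.00683), AT1G52050 (0.0108) and AT1G14220 (0.0491). AT1G52060 stood at 1.45 at 0 h and at −0.27, −0.45 and −0.05 later, while its neighbour AT1G52050 went from −1.64 to −3.20, −2.68 and −3.13. The later arrays are of auxin-treated seedlings by the study's design, with no mock treatment named in the labels, so time, treatment and array batch cannot be told apart in these changes.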

How the results depend on the processing

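The pseudocount and the size threshold moved the counts most. With a pseudocount of 1 and of 64, 516 and 86 probe sets were higher at 0 h, 770 and 135 lower and 1286 and 221 called in all. The same settings gave 977 and 179 calls at 30 min, 1011 and 176 at 1 h, 980 and 181 at 3 h, 889 and 157 for the mean of the later times, 560 and 90 for the change after 0 h, 859 and 117 for Bur-0 and 676 and 119 for Col-0 against the 5 other accessions. With a pseudocount of 64, 4 of 7 calls within the gene lists other than the plastid genes held, and 216 of the 329 calls with a single gene were lost. At an adjusted p under 0.01 and 4-fold, 21 were higher, 56 lower and 77 called, and with no minimum fold 2592, 2804 and 5396. Without 1 of the 6 arrays, 229 to 268 were higher, 364 to 390 lower, 602 to 658 called, 280 to 335 called for the change, and 344 to 388 and 290 to 313 for Bur-0 and Col-0 against the others; 16 to 41 of the 329 calls were lost. Other filters on dim probe sets, quantile normalization, a robust spread, the 6 arrays alone and the 3′/5′ covariates, where run, kept each of these counts within 1.5 times; the covariates ended 57 (GAPDH) and 87 (ubiquitin) of the 329 calls. Signs turned for psaA (−0.18 with the ubiquitin covariate), for LBD29 (0.0697 with it, and −0.102 to 0.0221 without 1 array) and for QQS (−0.0909 to 0.207 without 1 array, below 0 without Bur-0 replicate 3 or Col-0 replicate 3); LBD29 and QQS were not called. Replicate numbers did not pair the arrays, since deviations of same-numbered arrays correlated at 0.00737, −0.0339 and −0.0073. The replicate block gave 250 higher, 359 lower and 609 called over all arrays, 250, 360 and 610 over the 6 arrays alone, and 326 for the change. The cause of these shifts was not tested.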
